A study of Mus musculus with 10 samples.

Results

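Levels of the Hox genes were described on 10 Affymetrix mouse arrays of cultured fibroblasts. A gene counted as a member when its symbol in the platform's gene table was Hoxa, Hoxb, Hoxc or Hoxd followed by digits only, and was read from its brightest probe set, by the mean over the 10 arrays. This gave 33 genes of the 18193 genes measured, 9 in the Hoxa cluster (chromosome 6), 9 in Hoxb (chromosome 11), 7 in Hoxc (chromosome 15) and 8 in Hoxd (chromosome 2). Other Hox genes were not analysed here. Probe sets that list Hoxb8 with Hoxb7, or Hoxd4 with Hoxd3, were left out.

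Hox genes encode homeodomain transcription factors that give cells their position along the head to tail axis and along the limbs. Each cluster is ordered so that genes of low paralog number are used early and toward the head, and genes of high paralog number later and toward the tail or the limb tip. Fibroblasts keep the Hox pattern of the place in the body they came from, with Polycomb proteins holding the unused genes silent and Trithorax proteins keeping the used ones active.

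The cells were secondary, inducible mouse embryonic fibroblasts of a 129/SvJ x C57/B6 hybrid background. Such cells are derived through a first round of reprogramming and carry Pou5f1 (Oct4), Sox2, Klf4 and Myc, which together reprogram cells toward pluripotency, under doxycycline control, in the control group as in all others. Control cells stayed uninduced in 0.5% serum for 96 h. The 4 induced cohorts had doxycycline, labelled as 2 ug/ul, and 15% serum over the same time, and were labelled by their mean number of divisions as 0, 1, 2, or 3 or more. Serum therefore differed between the control and every cohort together with induction. Each group had 2 arrays, numbered replicate 1 and 2. The 2 arrays are labelled as biological replicates for the control and for 3 or more divisions, and as replicates elsewhere. Nothing states separate cultures or animals, so p-values measure only the spread between these samples, which may be technical. The sources used here do not say how the cohorts were parted, how old the embryos were or which body region the cells came from.

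The arrays of the control and of 3 or more divisions were registered as a first set of 4 arrays, and the cohorts of 0, 1 and 2 divisions as a second set of 6. For comparisons of these 3 cohorts with the control, and of 3 or more divisions with 0, set and group cannot be told apart. Deposited array medians lay between 31.4 and 33.95 on the linear scale. Of the cell type marker lists, fibroblast genes stood highest in the control. Their mean log2 level was 12.79 and 12.60 on the 2 arrays, over 14 genes. Adipocyte genes followed with 7.33 and 6.79 over 6 genes, and 12 epithelial genes had 4.43 and 4.58. Levels of different genes are not comparable, so this order is a description only. The numbers of arrays limit the precision of every value, and no detection calls were available.

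The promoters of the members differ in how many CG dinucleotides they hold, the sites at which DNA methylation is placed. Windows from 250 bases before to 50 bases after the gene start were taken from RefSeq on GRCm38.p6 and were found for 19 of the 33 members, with 21 windows in all. The member windows held a median of 15 CG dinucleotides against 7 over 32851 windows of all genes, and 18 of the 21 were above that median. Hoxd8, Hoxc4 and Hoxa13 are shown as examples: Hoxd8 and Hoxc4 hold fewer CG dinucleotides than the member median, and Hoxa13 holds the most. Hoxd8 and Hoxa13 were called both between cohorts and between the replicate numbers, and Hoxc4 between the numbers only. CG dinucleotides are in capitals, 5′ to 3′ on the strand of the gene, at chr2:74704365-74704664 (plus strand), chr15:103034145-103034444 (plus strand) and chr6:52260831-52261130 (minus strand).
Hoxd8: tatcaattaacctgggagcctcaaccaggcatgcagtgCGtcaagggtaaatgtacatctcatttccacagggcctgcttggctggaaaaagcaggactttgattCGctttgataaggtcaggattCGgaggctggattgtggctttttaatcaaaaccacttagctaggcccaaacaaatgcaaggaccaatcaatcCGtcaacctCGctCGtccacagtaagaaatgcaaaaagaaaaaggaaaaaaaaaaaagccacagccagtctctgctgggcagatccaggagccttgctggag
Hoxc4: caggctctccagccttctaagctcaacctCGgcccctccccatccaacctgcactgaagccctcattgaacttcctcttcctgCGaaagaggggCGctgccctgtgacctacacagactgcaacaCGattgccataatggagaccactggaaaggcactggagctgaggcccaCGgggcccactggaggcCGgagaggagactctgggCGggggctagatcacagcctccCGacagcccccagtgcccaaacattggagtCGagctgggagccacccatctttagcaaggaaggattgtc
Hoxa13: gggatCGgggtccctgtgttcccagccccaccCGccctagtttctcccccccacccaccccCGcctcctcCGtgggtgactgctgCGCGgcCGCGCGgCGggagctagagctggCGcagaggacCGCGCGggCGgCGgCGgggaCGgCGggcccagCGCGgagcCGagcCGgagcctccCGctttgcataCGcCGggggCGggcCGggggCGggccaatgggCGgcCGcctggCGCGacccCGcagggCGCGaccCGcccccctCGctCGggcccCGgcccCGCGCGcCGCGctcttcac
The Hoxd8 window held 6 CG dinucleotides, the Hoxc4 window 9 and the Hoxa13 window 45. At least as many as in Hoxa13 were found in 1.93% of all windows. The letters TATAAA of a TATA box, searched on both strands, were in the windows of Hoxa10 and Hoxd13, 2 of 21, against 13.6% of all windows. The letters TGATTNAT, a site shared by Pbx and Hox proteins, were in those of Hoxa2 and Hoxd11, again 2 of 21, against 3.22% of all windows. TTTATGG, preferred by posterior Hox proteins, was in 0 of 21 and in 2.75% of all windows. No window held more than 1 of the 3, and a match is a description of the sequence only.

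Across the 4 cohorts most Hox genes that moved against the control were lower, and the calls were most numerous after 3 or more divisions. A gene was called when its Benjamini-Hochberg adjusted p, from limma over all 18193 genes with the replicate number as a block, was under 0.05. After 3 or more divisions, 15 of the 33 members were lower than the control and 1, Hoxa4, was higher, beside a background of 17.3% of all genes called lower and 20.4% called higher. The median log2 change of the members was -0.43, against 0.02 over all genes. Of the 15 lower genes, all were lower in both same-numbered pairs, 9 had both control arrays above both cohort arrays, and 6 were at least 2-fold lower. These counts describe genes already called, which favours such agreement. No such count was made over all genes, so they add no support of their own. In bulk RNA, fewer cells of a type and less RNA per cell cannot be told apart. Without the block, 4 members were called lower (Hoxa10, Hoxd8, Hoxd10 and Hoxd11) and 1 higher, beside a background of 11.7% and 15.9%.

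The 16 calls rested in part on single arrays. Without replicate 2 of the control 9 were called, and without replicate 2 of the cohort that divided 3 or more times 8 were. Hoxa2, Hoxb3, Hoxb5, Hoxc5, Hoxc6 and Hoxc10 were not called in either of these fits. Hoxa10, Hoxa13, Hoxc8, Hoxd8, Hoxd10 and Hoxd11 were called lower, and Hoxa4 higher, with each of the 2 control arrays and the 2 arrays of that cohort left out in turn. The floor set on the intensities mattered as well. With a floor of 16 on the intensities, Hoxa2, Hoxa4, Hoxb2, Hoxb3, Hoxb5, Hoxb6, Hoxc5, Hoxc10 and Hoxd13 were not called. Of these, Hoxb2, Hoxb3, Hoxc5 and Hoxd13 had lowest normalized log2 levels of 4.81, 5.33, 4.21 and 10.19, above that floor. Why their calls were lost was not tested. No share of all genes called is given here for the fits of this paragraph.

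**Figure D1:**
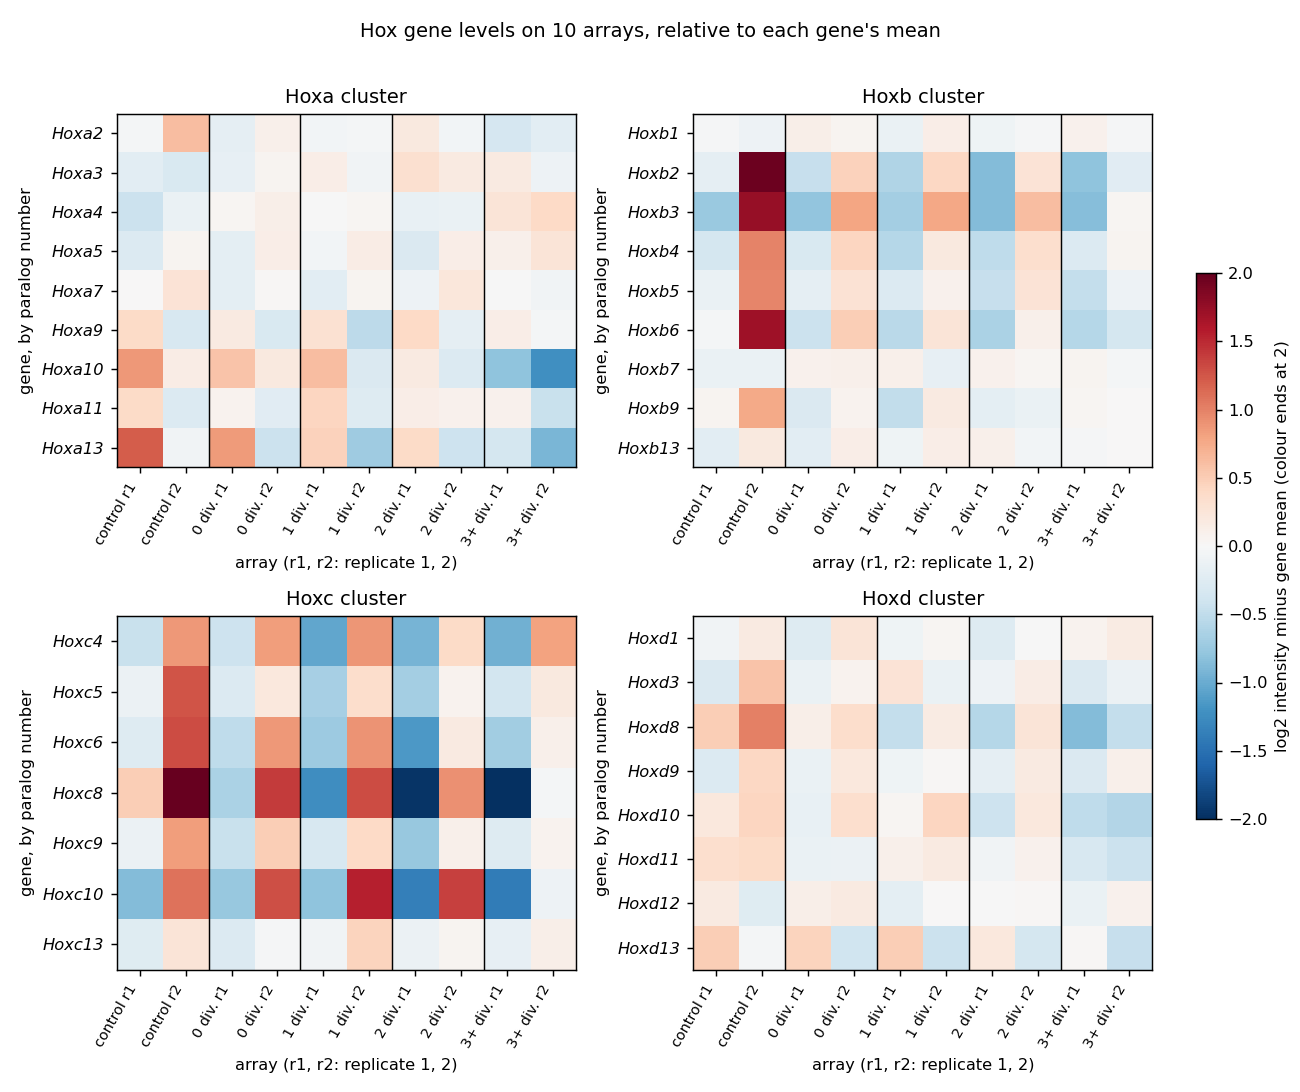
Log2 intensity of the 33 Hox genes on each of the 10 arrays, minus the mean of the gene over the arrays, by cluster (panels) and paralog number (rows); the colour scale ends at 2 in either direction. Replicate 2 is above replicate 1 in every group for Hoxb2 to Hoxb6 and all Hoxc genes, posterior Hoxa genes and Hoxd13 run the other way, and Hoxa10 is lowest on both arrays of the cohort that divided 3 or more times, as Hoxc8 and Hoxd8 are within each replicate number.

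By cluster, the calls after 3 or more divisions were spread over all 4. Hoxa had 3 genes lower and 1 higher of 9, with a median log2 change of -0.18. In Hoxb 4 of 9 were lower, with a median of -0.43. For Hoxc the count was 4 of 7 and the median -0.66, with all 7 changes below 0, called or not. In Hoxd 4 of 8 were lower, with a median of -0.39. By position, 3 of 7 anterior genes (paralogs 1 to 3), 6 of 12 central genes (4 to 8) and 6 of 14 posterior genes (9 to 13) were lower, with medians of -0.34, -0.55 and -0.41. The difference between clusters or positions was not tested.

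Paralog group 8 held the largest fall of the members and another of the larger ones. Hoxc8, which patterns the thoracic trunk and the motor neurons of the forelimb, had log2 levels of 7.33 and 8.99 in the control, 6.20 and 8.24 after 0 divisions, 5.60 and 8.14 after 1, 4.87 and 7.74 after 2 and 4.44 and 6.80 after 3 or more, each pair in the order replicate 1, replicate 2. Within each replicate number the level was lower in every cohort than in the cohort with fewer divisions, while the 2 numbers stood 1.66 to 2.87 log2 units apart over the groups. The log2 change from the control was -0.94 after 0 divisions, which was not called, -1.29 after 1 (limma adjusted p = 0.0232), -1.85 after 2 (adjusted p = 0.00273) and -2.54 ± 0.25 (SE) after 3 or more, a 5.81-fold fall (adjusted p = 0.000135). Without the block the last adjusted p was 0.206, since the difference between the replicate numbers then counts as spread.

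Hoxd8, a central gene of the Hoxd cluster used in the trunk, had log2 levels of 8.99 and 9.51 in the control, 8.61 and 8.86 after 0 divisions, 8.03 and 8.66 after 1, 7.94 and 8.76 after 2 and 7.64 and 8.02 after 3 or more. The control arrays did not overlap with those of any cohort. Its log2 change was -0.51 after 0 divisions, not called, then -0.90 after 1 (limma adjusted p = 0.0125), -0.90 after 2 (adjusted p = 0.00548) and -1.42 ± 0.15 after 3 or more, a 2.67-fold fall (adjusted p = 0.000165, and 0.0146 without the block). Its other probe set changed by -1.33 in the last comparison.

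**Figure D2:**
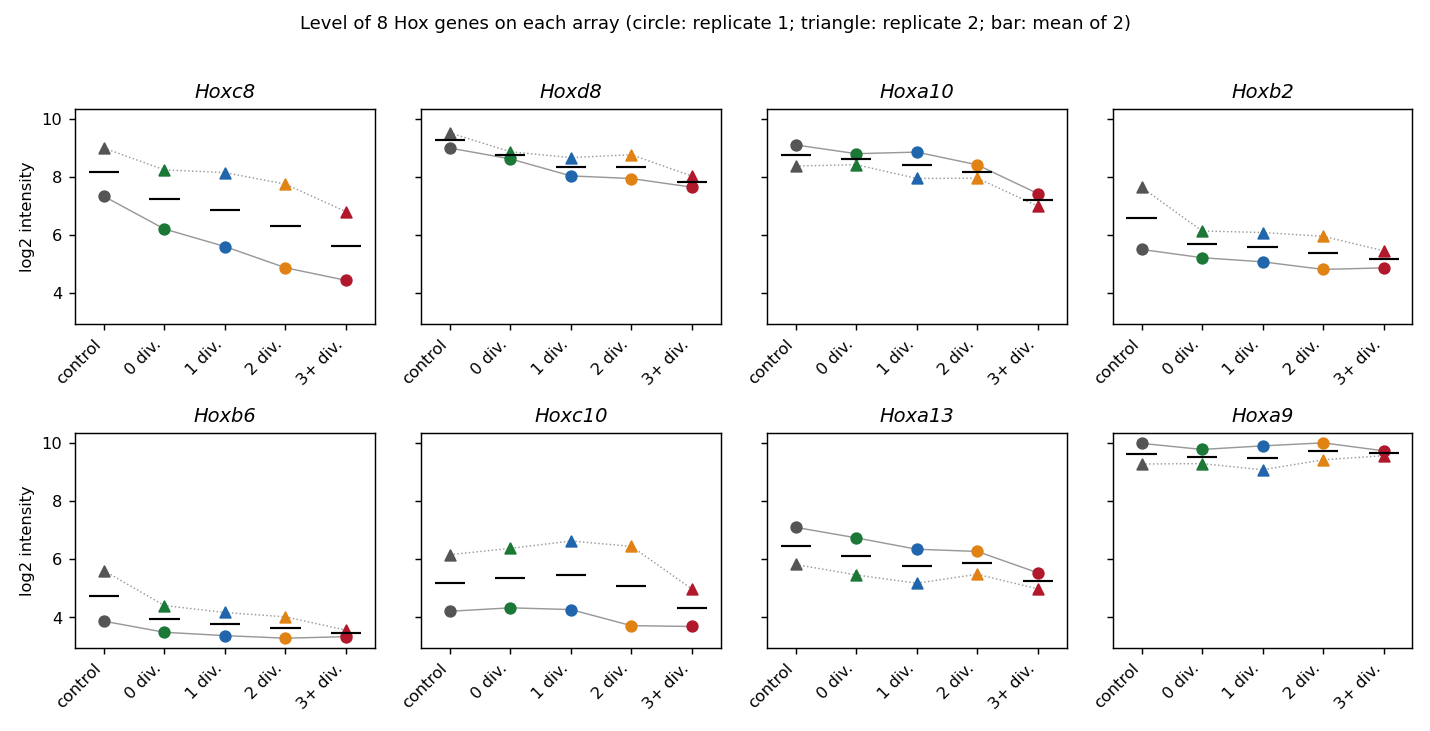
Log2 intensity of 8 Hox genes on each array, by group; circles joined by a solid line are replicate 1, triangles joined by a dotted line are replicate 2, and the bar is the mean of the 2. Hoxc8 runs from 7.33 and 8.99 in the control to 4.44 and 6.80 after 3 or more divisions with its replicate numbers apart throughout, Hoxb2 and Hoxb6 fall mostly in replicate 2, and Hoxa9 shows no drop. Levels of different genes are not comparable.

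Posterior Hoxa genes split into 2 that fell and 2 that did not pass the test. Hoxa10, which patterns the lumbar region and the reproductive tract, stood at log2 levels of 9.09 and 8.37 in the control, 8.79 and 8.41 after 0 divisions, 8.85 and 7.94 after 1, 8.41 and 7.95 after 2 and 7.42 and 6.99 after 3 or more. Both arrays of the last cohort were below all others. The log2 change from the control was -0.55 after 2 divisions (limma adjusted p = 0.0405) and -1.52 ± 0.15 after 3 or more, a 2.88-fold fall (adjusted p = 0.000128, and 0.0158 without the block). The other probe set of the gene changed by -0.28 after 3 or more divisions. Read in place of the brightest, it was not called (limma adjusted p = 0.306). The call after 2 divisions was lost without the block (adjusted p = 0.445). It was also lost with the mean of both probe sets (log2 change -0.40, adjusted p = 0.0987). Hoxa13, needed for digits and the urogenital tract, had log2 levels of 7.10 and 5.82 in the control, 6.73 and 5.46 after 0 divisions, 6.34 and 5.17 after 1, 6.27 and 5.48 after 2 and 5.53 and 4.98 after 3 or more. The fall after 3 or more divisions was 2.30-fold (log2 change -1.20 ± 0.19, limma adjusted p = 0.00128), and its adjusted p without the block was 0.19.

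Hoxa9, a regulator of blood progenitors and of the trunk, kept log2 levels of 9.98 and 9.27 in the control and 9.73 and 9.56 after 3 or more divisions, with 9.77 and 9.29, 9.90 and 9.07, and 10.00 and 9.42 after 0, 1 and 2. Its log2 change of 0.02 in the cohort that divided 3 or more times was not called (limma adjusted p = 0.954), and its other probe set changed by -0.46. For Hoxa11, used in the forearm and the uterus, the log2 levels were 8.61 and 7.95 in the control, 8.30 and 8.0 after 0 divisions, 8.66 and 7.97 after 1, 8.36 and 8.31 after 2 and 8.30 and 7.79 after 3 or more. Groups overlapped, and the change of -0.24 was not called (adjusted p = 0.31).

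Of the anterior and central Hoxa genes, Hoxa2 was called lower and Hoxa4 higher after 3 or more divisions. Hoxa2, which gives the second pharyngeal arch its identity, had log2 levels of 3.99 and 4.64 in the control, 3.85 and 4.14 after 0 divisions, 3.98 and 3.99 after 1, 4.22 and 3.98 after 2 and 3.70 and 3.82 after 3 or more. Its log2 change was -0.56 ± 0.19 (limma adjusted p = 0.0484). Hoxa4, a gene of the cervical region, rose from 3.25 and 3.54 to 3.92 and 4.06, with 3.72 and 3.79, 3.66 and 3.71, and 3.52 and 3.54 after 0, 1 and 2 divisions. This rise of 1.52-fold (log2 change 0.60 ± 0.11, adjusted p = 0.00311) lay among dim values. It was 0.03 and not called with a floor of 16 on the intensities, and the other probe set of Hoxa4 changed by 0.02.

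Hoxa3, which patterns the pharyngeal arches and the thymus, was the member called higher after 2 divisions. Its log2 levels were 5.45 and 5.35 in the control, 5.49 and 5.70 after 0 divisions, 5.79 and 5.59 after 1, 5.97 and 5.83 after 2 and 5.84 and 5.55 after 3 or more. The log2 change was 0.50 ± 0.14 after 2 divisions (limma adjusted p = 0.0412) and 0.29 after 3 or more (adjusted p = 0.132). With the mean of its probe sets in place of the brightest, the change after 2 divisions was 0.028 and not called (adjusted p = 0.887), and the call was lost with 6 of the 10 arrays left out in turn. Hoxa5, a regulator of lung development, was at 6.41 and 6.74 in the control, 6.49 and 6.82 after 0 divisions, 6.64 and 6.84 after 1, 6.41 and 6.82 after 2 and 6.80 and 6.94 after 3 or more. Its change of 0.29 was not called (adjusted p = 0.0722). The other probe set of Hoxa5 changed by -1.08 in the same comparison, so the probe sets of this gene disagree in direction.

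In the Hoxb cluster the falls were larger on the arrays of replicate 2 than on those of replicate 1. Hoxb2, which patterns the hindbrain, had log2 levels of 5.50 and 7.63 in the control, 5.21 and 6.13 after 0 divisions, 5.07 and 6.08 after 1, 4.81 and 5.95 after 2 and 4.86 and 5.45 after 3 or more. From the control to 3 or more divisions it changed by -0.63 in replicate 1 and -2.18 in replicate 2, a 2.65-fold fall in the fit (log2 change -1.41 ± 0.30, limma adjusted p = 0.00659). After 2 divisions the log2 change was -1.18 (adjusted p = 0.0337). Hoxb6, expressed in the trunk and lateral mesoderm, had log2 levels of 3.87 and 5.61 in the control, 3.49 and 4.41 after 0 divisions, 3.37 and 4.17 after 1, 3.28 and 4.02 after 2 and 3.34 and 3.56 after 3 or more. Replicate 2 of the control stood above the other 9 arrays, as it did for Hoxb2 to Hoxb5. The same held for further members, among them Hoxa2, Hoxc5 and Hoxc6. The fall was 2.45-fold (log2 change -1.29 ± 0.29, adjusted p = 0.00768), with pair changes of -0.53 and -2.05, and the change after 2 divisions was -1.09 (adjusted p = 0.0375).

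Hoxb3, a hindbrain and thyroid regulator, had log2 levels of 5.47 and 7.94 in the control, 5.42 and 7.0 after 0 divisions, 5.52 and 6.98 after 1, 5.33 and 6.83 after 2 and 5.35 and 6.24 after 3 or more. On the replicate 1 arrays it lay between 5.33 and 5.52 in all groups, and the fall of -0.91 ± 0.30 (limma adjusted p = 0.0418) came with pair changes of -0.12 and -1.70. The other probe set of Hoxb3 changed by -0.06, and with the mean of both the change was -0.48 and not called (adjusted p = 0.0538). Hoxb5, which acts in the gut nervous system and in placing the forelimb, was at 3.70 and 4.81 in the control, 3.66 and 4.13 after 0 divisions, 3.56 and 3.93 after 1, 3.37 and 4.11 after 2 and 3.36 and 3.73 after 3 or more. Its log2 change was -0.71 (adjusted p = 0.0163), with pair changes of -0.34 and -1.09. Hoxb4, known for the expansion of blood stem cells, had log2 levels of 5.50 and 6.83 in the control, 5.54 and 6.28 after 0 divisions, 5.28 and 6.04 after 1, 5.33 and 6.19 after 2 and 5.57 and 5.91 after 3 or more. Its pairs went apart, with 0.07 and -0.93, and the change of -0.43 was not called (adjusted p = 0.135).

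**Figure D3:**
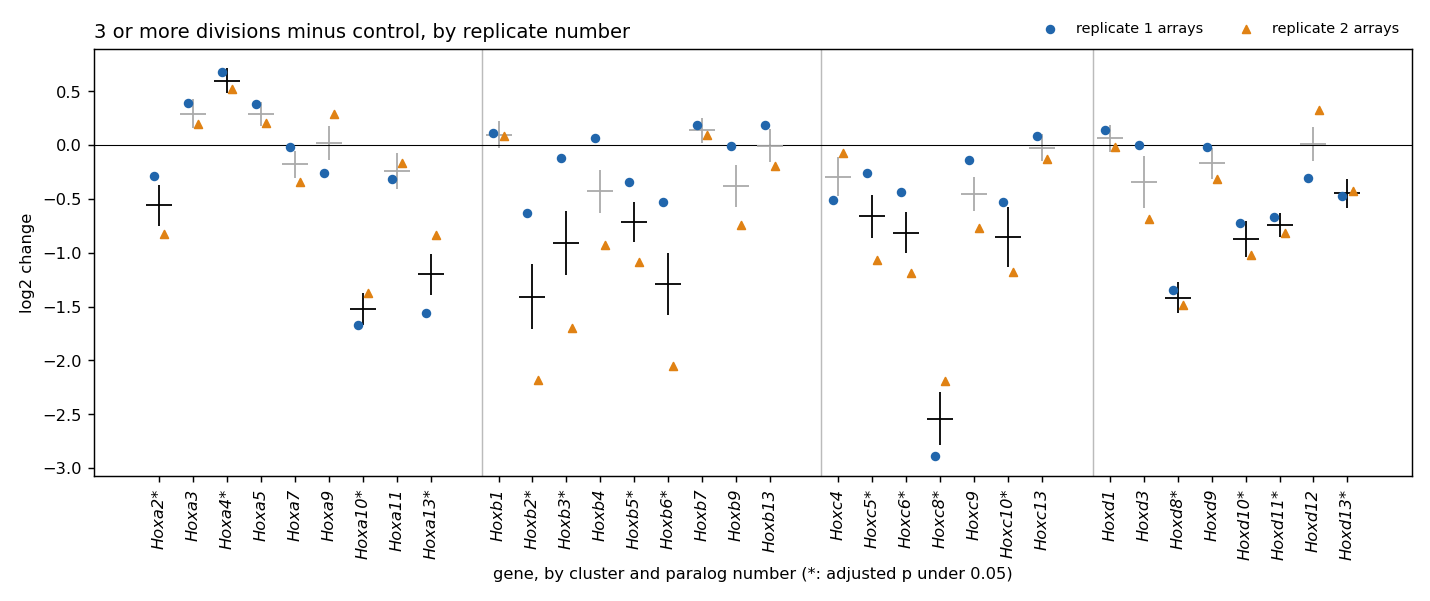
Log2 change from the control to 3 or more divisions for each of the 33 Hox genes, on replicate 1 arrays (circles) and replicate 2 arrays (triangles); the cross is the fitted change with its standard error, black and starred where the adjusted p was under 0.05. Hoxc8 is lowest at -2.54, Hoxa10, Hoxd8, Hoxd10 and Hoxd11 have close pairs, and the pairs of Hoxb2, Hoxb3 and Hoxb6 lie far apart.

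Of the other 6 Hoxc genes, Hoxc5, Hoxc6 and Hoxc10 were called lower after 3 or more divisions, with smaller changes than Hoxc8. Hoxc6, used in the thoracic trunk and the forelimb motor columns, had log2 levels of 5.81 and 7.36 in the control, 5.55 and 6.94 after 0 divisions, 5.34 and 6.96 after 1, 4.91 and 6.25 after 2 and 5.38 and 6.17 after 3 or more. It was 2.01-fold lower after 2 divisions (log2 change -1.01 ± 0.19, limma adjusted p = 0.00962) and changed by -0.81 after 3 or more (adjusted p = 0.00919), its other probe sets changing by -1.07 and -0.16. Hoxc5, a cervical gene, was at 4.77 and 6.14 in the control, 4.60 and 5.09 after 0 divisions, 4.22 and 5.24 after 1, 4.21 and 4.95 after 2 and 4.51 and 5.07 after 3 or more. Its log2 changes were -0.88 after 2 divisions (adjusted p = 0.0231) and -0.66 after 3 or more (adjusted p = 0.0326).

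Hoxc9, which sets thoracic motor neuron identity, passed the test after 2 divisions, with a log2 change of -0.68 (limma adjusted p = 0.0247), and not after 3 or more, with -0.45 (adjusted p = 0.057). Its log2 levels were 5.94 and 6.90 in the control, 5.62 and 6.56 after 0 divisions, 5.75 and 6.47 after 1, 5.30 and 6.16 after 2 and 5.80 and 6.13 after 3 or more. Hoxc10, a lumbar and hindlimb gene, had log2 levels of 4.21 and 6.16 in the control, 4.33 and 6.37 after 0 divisions, 4.27 and 6.63 after 1, 3.71 and 6.44 after 2 and 3.69 and 4.98 after 3 or more. Within replicate 2, the cohort that divided 3 or more times stood well below the other 4 arrays. The change from the control was -0.85 (adjusted p = 0.0431).

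Hoxc4, a cervical gene, had log2 levels of 4.98 and 6.30 in the control, 5.01 and 6.26 after 0 divisions, 4.38 and 6.31 after 1, 4.49 and 5.81 after 2 and 4.47 and 6.22 after 3 or more. Its change of -0.29 after 3 or more divisions was not called (limma adjusted p = 0.25). Hoxc13, a gene of hair and nail, was at 4.66 and 5.17 in the control, 4.64 and 4.88 after 0 divisions, 4.85 and 5.36 after 1, 4.80 and 4.97 after 2 and 4.75 and 5.04 after 3 or more. No cohort of either gene was called against the control.

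Besides Hoxd8, 3 posterior Hoxd genes were called lower after 3 or more divisions. Hoxd10, used in hindlimb motor neurons, had log2 levels of 7.37 and 7.59 in the control, 7.02 and 7.49 after 0 divisions, 7.21 and 7.59 after 1, 6.74 and 7.38 after 2 and 6.65 and 6.57 after 3 or more. Both arrays of the last cohort were the lowest of the 10, and the log2 change was -0.87 ± 0.17 (limma adjusted p = 0.00355, and 0.0341 without the block). Hoxd11, a forearm gene, was at 5.0 and 5.04 in the control, 4.52 and 4.54 after 0 divisions, 4.76 and 4.84 after 1, 4.59 and 4.74 after 2 and 4.34 and 4.23 after 3 or more. Its replicates lay close in every group, and the change of -0.74 ± 0.11 was called with the block (adjusted p = 0.000913) and without it (adjusted p = 0.00192).

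Hoxd13, the digit gene at the end of the cluster, had log2 levels of 11.15 and 10.62 in the control, 11.11 and 10.26 after 0 divisions, 11.15 and 10.23 after 1, 10.87 and 10.31 after 2 and 10.68 and 10.19 after 3 or more. Its log2 change after 3 or more divisions was -0.45 (limma adjusted p = 0.0334, and 0.479 without the block) and that of its other probe set was -0.91. The arrays of the control and of this cohort overlapped. The call of Hoxd13 was lost without replicate 1 or replicate 2 of the control, and without replicate 1 of the cohort. Hoxd9, which acts in the upper limb segment, was at 7.14 and 7.84 in the control, 7.28 and 7.63 after 0 divisions, 7.33 and 7.44 after 1, 7.23 and 7.60 after 2 and 7.12 and 7.52 after 3 or more. The groups overlapped, and its change of -0.17 was not called.

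Called in no comparison were 8 members, whose log2 levels over the 10 arrays ranged from 6.61 to 7.09 for Hoxa7, 3.12 to 3.40 for Hoxb1, 4.27 to 4.54 for Hoxb7, 4.43 to 5.67 for Hoxb9, 4.03 to 4.44 for Hoxb13, 3.05 to 3.57 for Hoxd1, 3.74 to 4.60 for Hoxd3 and 3.60 to 4.03 for Hoxd12. Of these genes Hoxa7 alone had a mean above 6.50, the median of all gene means. Over all members 10 were above that median and 23 at or below it. Dim genes have their differences compressed at these intensities.

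In the cohorts of fewer divisions the calls were fewer. After 0 divisions 0 members were called by limma, 8 were at an unadjusted p under 0.05, and the median log2 change was -0.20, beside a background of 3.25% of all genes called. After 1 division 2 were lower, Hoxc8 and Hoxd8, and 0 higher, against a background of 2.55% lower and 4.47% higher, with a median of -0.22. After 2 divisions 8 were lower and 1 higher, against 6.43% and 9.11% of all genes, with a median of -0.30. In this last comparison 4 of the 8 lower genes were Hoxc genes. Without the block 0 members were called after 1 and after 2 divisions, with 1 and 3 at an unadjusted p under 0.05 and a background of 1.24% and 6.12% called in either direction. These comparisons share the control arrays, so their values stand side by side and are not independent.

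Single arrays moved these counts too, again with no share over all genes beside them. After 2 divisions, 2 members were called without replicate 2 of the control, 2 without replicate 1 of the cohort and 3 without its replicate 2. For 1 division the count was 4 without replicate 1 of the control, 1 without its replicate 2 and 0 without either array of the cohort, with 7 at an unadjusted p under 0.05 in both of the last fits. Without replicate 1 of the control, 2 were called after 0 divisions.

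Among the induced cohorts, 2 divisions against 0 gave 0 calls by limma, 5 members at an unadjusted p under 0.05 and a median log2 change of -0.14, with 1.13% of all genes called. For 3 or more divisions against 0, 6 members were lower and 0 higher, beside a background of 11.2% lower and 14.4% higher, and the median log2 change was -0.17 against 0.03 over all genes. Hoxc8 changed by -1.60 (limma adjusted p = 0.00277), Hoxa10 by -1.40 (0.00067), Hoxc10 by -1.02 (0.0299), Hoxd8 by -0.90 (0.00323), Hoxa13 by -0.84 (0.0125) and Hoxd10 by -0.64 (0.0233). No Hoxb gene was called here. Without the block the call left was Hoxa10 (adjusted p = 0.0399), beside a background of 13.9% in either direction. With the block but without replicate 1 of the cohort of 0 divisions 3 members were called.

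Many Hox genes differed between the replicate numbers themselves. Between replicate 2 and replicate 1, over the 5 groups, 15 members were higher and 5 lower, beside a background of 6.27% of all genes higher and 5.68% lower (limma with the same fit). All 20 differed in the same direction in each of the 5 groups, and 7 of them by at least 2-fold. Both counts were made among called genes only, with no such count over all genes. The median log2 difference of the members was 0.28, against 0.01 over all genes. All 7 Hoxc genes were higher in replicate 2, with a median of 1.34. In Hoxb 5 of 9 were higher, with a median of 0.61. Hoxa had 4 lower and 1 higher of 9, with a median of -0.10, and Hoxd 2 higher and 1 lower of 8, with a median of 0.23. The difference between clusters was not tested.

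**Figure D4:**
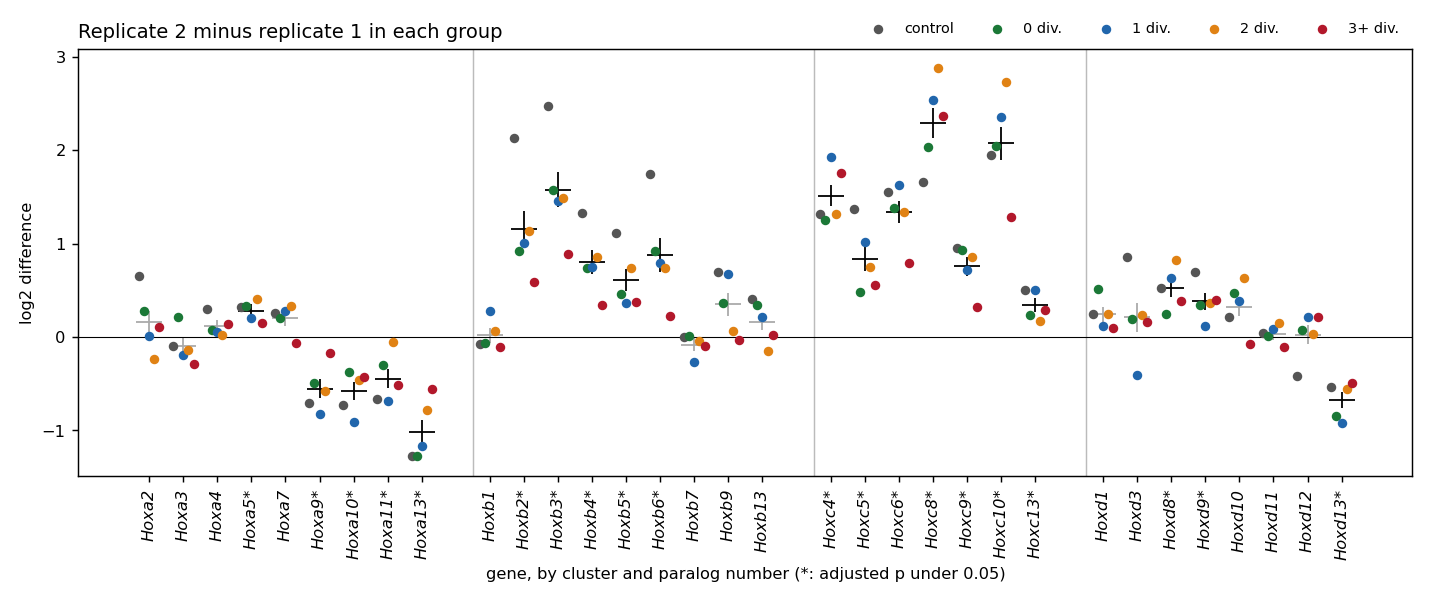
Log2 level on replicate 2 minus that on replicate 1 in each of the 5 groups for the 33 Hox genes; the cross is the fitted difference with its standard error, black and starred where the adjusted p was under 0.05. All 7 Hoxc genes are above 0 in every group, posterior Hoxa genes and Hoxd13 are below 0 in every group, and the control is the highest of the groups for Hoxb2 to Hoxb6.

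By position, the difference between the numbers ran from central genes, with 9 of 12 higher in replicate 2 and 0 lower, to posterior genes, with 4 higher and 5 lower of 14. Of 7 anterior genes 2 were higher. Hoxc8 was 4.91-fold higher in replicate 2 (log2 difference 2.29 ± 0.16, limma adjusted p = 0.000552), and Hoxc10 was 4.21-fold higher (2.07 ± 0.18, adjusted p = 0.000869). For Hoxb3 the difference was 2.98-fold (1.58 ± 0.19, adjusted p = 0.00283), and for Hoxc4 2.85-fold (1.51 ± 0.11, adjusted p = 0.000571). Hoxc6 followed with 1.34 ± 0.12 (adjusted p = 0.000998) and Hoxb2 with 1.16 ± 0.19 (adjusted p = 0.00925). These are trunk and hindbrain genes from the anterior and central part of the series, with Hoxc10 the posterior one.

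Smaller differences toward replicate 2 were 0.88 in Hoxb6 (limma adjusted p = 0.0202), 0.84 in Hoxc5 (0.00692), 0.81 in Hoxb4 (0.00756), 0.76 in Hoxc9 (0.0042), 0.61 in Hoxb5 (0.0159), 0.52 in Hoxd8 (0.012), 0.38 in Hoxd9 (0.031), 0.34 in Hoxc13 (0.0289) and 0.28 in Hoxa5 (0.0384). Genes lower in replicate 2 were Hoxa13 (log2 difference -1.01 ± 0.12, limma adjusted p = 0.00264), Hoxd13 (-0.67 ± 0.09, adjusted p = 0.00393), Hoxa10 (-0.58, adjusted p = 0.00846), Hoxa9 (-0.55, adjusted p = 0.0126) and Hoxa11 (-0.44, adjusted p = 0.0316). All 5 are posterior genes, and both group 13 members of Hoxa and Hoxd are among them. Both between the numbers and between cohorts 13 members were called, among them Hoxc8 and Hoxa13. No such count was made over all genes, so this one is a description only.

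Other genes of body position also differed between the replicate numbers. In a list of 19 measured limb and trunk regulators, 5 were higher and 6 lower in replicate 2, beside 6.27% and 5.68% of all genes. Tbx4, a hindlimb regulator, had log2 levels of 9.13 to 9.92 over the replicate 1 arrays and 7.85 to 8.57 over those of replicate 2 (log2 difference -1.38, limma adjusted p = 0.00131). Pitx1, which acts before Tbx4 in the hindlimb, was also lower, by -0.74 (adjusted p = 0.00423). The forelimb gene Tbx5 was higher by 0.39 (adjusted p = 0.0281), Shox2 of the upper limb by 1.74 (adjusted p = 0.000552) and Emx2 by 1.18 (adjusted p = 0.00133). The genes named are a selection from the 11 called. Hoxc10, a hindlimb gene, went the other way from Tbx4 and Pitx1, being higher in replicate 2. Xist, the RNA that coats an inactive X chromosome, ranged from 5.66 to 6.30 in replicate 1 and from 7.82 to 10.42 in replicate 2, and the Y-linked gene Eif2s3y averaged 10.19 and 9.78, genes looked up after the values were seen. Of the cell type markers, fibroblast genes had 0 higher and 4 lower of 14 in replicate 2 (Lum at -1.71, Pdgfra at -1.21), adipocyte genes 1 higher and 2 lower of 6 (Fabp4 at -1.28), neural and glial genes 1 higher of 9 (Nes at 0.56), and epithelial and skeletal muscle genes 1 lower each, of 12 and 9. Endothelial and macrophage genes had 0 called by limma, with 0 and 1 at an unadjusted p under 0.05. The part of these genes and markers in the Hox differences was not tested.

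For Hoxb2 to Hoxb6 the gap between the numbers was widest in the control. It was 2.14 log2 units for Hoxb2 against 0.59 to 1.14 in the cohorts, 2.47 against 0.89 to 1.58 for Hoxb3, and 1.74 against 0.23 to 0.92 for Hoxb6. A test of the control's gap against that of the cohorts, chosen after seeing the data, called 0 genes by limma over all genes, 0% as background, with 1077 at an unadjusted p under 0.05. Of the members 10 were at an unadjusted p under 0.05, 5 of them Hoxb genes. Hoxc8 and Hoxd12, also among the 10, went the other way, the control's gap minus that of the cohorts being -0.80 and -0.55. The Hoxb gap was seen before the test was chosen, so the count of Hoxb genes adds no support.

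Of 15 listed homeobox genes and noncoding transcripts linked to the clusters 5 were measured (Evx1, Evx2, Hoxa11os, Hoxb5os and Hoxd3os1), with 2 lower and 0 higher after 3 or more divisions. The background over all genes was 17.3% lower and 20.4% higher. Hoxb5os, a transcript antisense to Hoxb5, had log2 levels of 8.12 and 9.61 in the control, 7.34 and 8.33 after 0 divisions, 6.68 and 7.77 after 1, 6.49 and 7.50 after 2 and 6.21 and 6.83 after 3 or more. It was the one member of the list called in every cohort against the control, with log2 changes of -1.02, -1.64, -1.86 and -2.34 ± 0.18 (limma adjusted p = 0.0251, 0.00386, 0.000818 and 5.2e-05). Hoxd3os1 changed by -0.40 after 3 or more divisions (adjusted p = 0.0454). Between the numbers Hoxb5os was higher in replicate 2 by 1.04 (adjusted p = 0.00209) and Hoxd3os1 by 0.78 (adjusted p = 0.00208), and Hoxa11os differed by -0.93 (adjusted p = 0.00216). No source used here says whether these probe sets tell the strands apart.

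The TALE cofactors, which bind DNA together with Hox proteins, had 4 lower and 0 higher of 8 measured after 3 or more divisions, with a median log2 change of -0.48. Over all genes 17.3% were lower and 20.4% higher. Pknox2 changed by -1.02 (limma adjusted p = 0.00533), Meis2 by -0.90 (adjusted p = 0.0154) and Pbx2 by -0.65 (adjusted p = 0.0118). Meis1 was higher in replicate 2 by 0.94 (adjusted p = 0.0117). Of 6 ParaHox genes, close relatives of the Hox genes outside the clusters, 0 were called by limma in any of the 7 comparisons and 0 had an unadjusted p under 0.05, Cdx4 having a change of 0.26 (adjusted p = 0.256).

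Retinoic acid is known to induce anterior Hox genes in embryos. Of 16 measured genes of its pathway 4 were higher and 2 lower after 3 or more divisions, shares near the background of 20.4% and 17.3% over all genes. Crabp2, a binding protein that carries retinoic acid to its receptors, rose by 2.43 (limma adjusted p = 0.000512), and Cyp26b1, which degrades retinoic acid, by 1.30 (adjusted p = 0.00912). The receptor gene Rxra fell by 0.77 (adjusted p = 0.00109). Between the numbers 3 were higher and 1 lower in replicate 2, among them the synthesis enzyme gene Aldh1a1 with 1.54 (adjusted p = 0.00886).

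Among 16 Polycomb genes 4 were higher and 5 lower after 3 or more divisions, with a median of -0.10. For every list in this paragraph the background over all genes was 20.4% higher and 17.3% lower. Ezh2, the H3K27 methyltransferase gene, rose by 1.81 (limma adjusted p = 9.7e-05), Rnf2, a ubiquitin ligase gene of the complex, fell by 1.09 (adjusted p = 0.000304), and Phc3 by 0.87 (adjusted p = 0.00232). Of 11 Trithorax and H3K27 demethylase genes 8 were higher and 1 lower, with a median of 0.55. Dpy30 rose by 1.30 (adjusted p = 0.000343) and the H3K79 methyltransferase gene Dot1l by 1.15 (adjusted p = 0.000547), and the demethylase gene Kdm6a fell by 0.72 (adjusted p = 0.00642). For limb and trunk regulators the counts were 1 higher and 6 lower of 19, with Shox2 at -2.35 (adjusted p = 7.2e-05), Foxd1 at 2.28 (adjusted p = 0.000699) and Irx5 at -1.37 (adjusted p = 0.00133). Of the Polycomb and the Trithorax list, 0 genes were called by limma between the replicate numbers, with 5 and 2 at an unadjusted p under 0.05.

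Fibroblast, epithelial and some other cell type markers changed beside the fall of the Hox genes after 3 or more divisions. Over all genes 20.4% were called higher and 17.3% lower. The endothelial, macrophage and skeletal muscle counts lay near or below these shares. Of 14 fibroblast genes 10 were lower and 1 higher, with a median log2 change of -0.91, and their mean log2 level went from 12.79 and 12.60 in the control to 11.86 and 11.45. Pdgfra changed by -2.95, Lum by -2.20 and Dcn by -1.98. Of 12 epithelial and keratinocyte genes 5 were higher and 0 lower, and their mean level went from 4.43 and 4.58 to 6.93 and 6.88, with Krt14 at 6.04, Cdh1 at 5.93 and Dsp at 5.66 (log2 changes). Endothelial genes had 1 higher (Tek, 2.44) and 1 lower (Kdr, -0.55) of 8, macrophage genes 1 (Cd68, 3.54) and 1 (Lyz2, -1.39) of 10, neural and glial genes 4 and 1 of 9, with Stmn2 at 5.82, Tubb3 at 3.33 and Map2 at -2.02. Skeletal muscle genes had 0 higher and 2 lower of 9 (Tnnc1, -0.82, and Myh3, -0.49), and adipocyte genes 1 and 2 of 6, with Lpl at -4.77, Pparg at 2.00 and Fabp4 at -1.55. The part of these markers in the Hox changes was not tested. On the Actb control probe sets the 3' minus 5' difference, a reading of RNA and labelling quality, was 0.26 on both control arrays and 0.49 and 0.50 after 3 or more divisions, and its part was not tested either.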

How the data were processed

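The authors deposited 1 table of linear intensity for 45101 probe sets on 10 arrays (5.70 to 26572). RMA is named for the 4 arrays of the first set, per the submitters' processing notes, and the sources used here name no tool for the other 6. Values were floored at 1, which moved 0 of them, log2 transformed and quantile normalized, since the deposited table was not on a log2 scale. Of the probe sets 34945 listed 1 gene, 932 several (unnamed here), 9211 were not in the gene table, and 13 array control probe sets with a gene were left out. The RefSeq gene table gave names and chromosomes, and RefSeq on GRCm38.p6 the promoters.

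All 10 arrays were fitted with limma 3.58.1 in R 4.3.3 (5 groups, replicate number as a block, 4 residual degrees of freedom), two-sided, over 18193 genes, and the script was tested on simulated data. The pairing by number comes from the data: same-numbered arrays deviated together, every one of the 10 pairs of groups having an r between 0.477 and 0.872. Members called in at least 1 of 7 comparisons have values on every array, and each list up to 3 called members with the largest change after 3 or more divisions. List genes named for the replicate numbers were chosen apart from this rule. The gene names and lists were chosen with earlier results of these data known. Alternatives were no block, other normalizations, floors, filters and probe set rules, 1 set alone, and each array left out.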

Additional observations from a re-analysis of the deposited data

Results flagged for a closer look

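The cohort of 3 or more divisions differed from that of 0 divisions in 6 Hox genes by the test of that difference itself (limma, adjusted p under 0.05), although set and group cannot be told apart there. The log2 differences were -1.60 for Hoxc8, -1.40 for Hoxa10, -1.02 for Hoxc10, -0.90 for Hoxd8, -0.84 for Hoxa13 and -0.64 for Hoxd10. The pairs of Hoxc10 also differed in sign between cohorts. Both were lower after 3 or more divisions (-0.85 against the control) and both higher after 1 division. The change after 1 division, 0.26 ± 0.28, was not called (limma adjusted p = 0.664). The difference between these changes was not tested. Groups of 2 arrays allow no search for outlying samples.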

How the results depend on the processing

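With no replicate block, although the pairing of the numbers holds in all pairs of groups, the counts of called Hox genes were 5 in place of 16 after 3 or more divisions, 0 after 1 and 0 after 2 divisions against the control, and 1 for 3 or more against 0. It changed no other count of calls, and the replicate comparison has no such fit. A floor of 16 gave 8, 0 (5 at an unadjusted p under 0.05) and 3 calls for 3 or more, 1 and 2 divisions against the control, 3 for 3 or more against 0, 7 between the replicate numbers, and medians of -0.044 for 2 and -0.10 for 3 or more divisions against 0. Genes above the median mean, which leave 10 members, gave 6 calls for 3 or more and 3 for 2 divisions against the control, 8 between the numbers, and medians of -0.18 for 2 divisions against the control and -0.070 against 0. The mean of all probe sets gave 1 call for 0 divisions and a median of -0.36 for 2. Centring each array on its median gave -0.12 for 3 or more against 0. The 4 arrays of the first set alone gave 10 calls for 3 or more divisions and 0 between the numbers (18 at an unadjusted p under 0.05). Except for the fit with no block, the share of all genes called in these fits is not given here. A loss of calls over all genes and one particular to the Hox genes therefore cannot be told apart from these counts.

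With each array left out, the calls against the control ranged from 8 to 16 for 3 or more divisions, 0 to 2 for 0, 0 to 4 for 1 and 2 to 10 for 2, and from 3 to 7 for 3 or more against 0. The medians ranged from -0.37 to -0.19 for 2 divisions against the control and from -0.20 to -0.13 for 3 or more against 0. Of 53 single-gene results, 3 were called in all settings run, Hoxd8, Hoxd10 and Hoxd11 after 3 or more divisions, and 24 with every array left out in turn. Hoxa5 between the numbers reversed, to -0.066 (limma adjusted p = 0.792), with probe sets whose names carry no a, s or x. The cause was not tested in any of these cases. Shares of all genes called are not given for the fits with an array left out. Dim signal and 2 arrays a group limit what can be called.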
